A study of Mus musculus with 27 samples.

Results

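Cell cycle and DNA replication genes were followed in cultured microglia, the resident macrophages of the brain, from newborn mice. They are 41 of the 23995 genes in the authors' table, taken by gene symbol: 9 genes of replication licensing and the replication fork, 5 of nucleotide supply and maintenance methylation, 4 of the G1 to S transition, 1 inhibitor of cyclin-dependent kinases, 3 markers that span S phase to mitosis, 6 mitotic cyclins and kinases, 4 of the spindle checkpoint and the anaphase-promoting complex, and 9 of the spindle, kinetochore and cytokinesis. Mcm2 to Mcm7 and Pcna form the replication set of 7 genes, and the last 3 of these roles form the mitosis set of 19 genes. All 41 were among the 14668 genes that reached a value of 10 in at least 3 of the 27 libraries and were tested. That bar was not met in the same way by both sets: the 7 replication genes reached 10 in every library, while 1 of the 19 mitosis genes did so, and 11 of the 19 reached 10 in fewer than 3 of the CB2-/- libraries.

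Cells were shaken off confluent mixed glial cultures of cortex from which the meninges had been removed, were re-seeded and rested for 24 h, and were then stimulated for 16 h or left unstimulated. The groups were CB2-/- microglia (strain B6.Cg-Cnr2tm1Zim, which lacks the cannabinoid receptor CB2 encoded by Cnr2) with LPS at 100 ng/ml plus interferon-γ at 20 ng/ml (LPS/IFNγ), with PolyI:C, with CpG at 1 nmol/ml, or unstimulated, 3 libraries each, and wild-type C57BL/6J microglia with the same agents, 3 libraries each, or unstimulated, 6 libraries. LPS comes from bacteria and acts on Toll-like receptor 4, PolyI:C mimics double-stranded RNA and acts on Toll-like receptor 3, and CpG is unmethylated DNA that acts on Toll-like receptor 9. Library numbers were treated as 2 series. Numbers 2048 to 2188 were taken as 1 series, with all CB2-/- libraries at 2048 to 2059 and wild-type unstimulated replicates 4 to 6 at 2186 to 2188. These replicates served as the wild type for unstimulated CB2-/- cells, though their numbers form a run apart from those of the CB2-/- libraries. Numbers 3012 to 3023 belong to the stimulated wild-type libraries and to unstimulated replicates 1 to 3, which served as their baseline.

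DNA is copied once per cell cycle. The Mcm2 to Mcm7 proteins form the ring-shaped helicase that Cdc6 and Cdt1 load onto replication origins in G1, a step called licensing, and Pcna is the sliding clamp that holds the polymerases on DNA in S phase and also serves DNA repair. D-type and E-type cyclins drive cells from G1 into S phase by lifting the block that the retinoblastoma family of proteins puts on E2F transcription factors, Cdkn1a (p21) inhibits the kinases that these cyclins activate, and cyclin B with Cdk1 starts mitosis. Microglia divide in mixed glial culture under the growth factors that astrocytes release, above all the ligands of the Csf1 receptor, and LPS and interferons are known to hold macrophages back from dividing. Genes used early in the cycle are typically driven by E2F sites, and genes used late by a pair of elements, the CHR (cell cycle homology region) and the CCAAT box, which the DREAM and MuvB complexes and NF-Y bind.

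The promoter sequences below, from RefSeq on build GRCm38.p6, let these elements be read off. They lie just upstream of RefSeq's start of the 2 mitosis genes with the highest mean level among those that hold a CHR with a CCAAT box, and of 2 of the 3 replication genes that hold an E2F site, again those with the highest mean level. Capitals mark the CHR (TTTGAA) and CCAAT boxes in Cdk1 and Cdc20, and the E2F site and CCAAT boxes in Mcm6 and Mcm7. A CCAAT box on the other strand reads ATTGG, and the E2F site of Mcm7 is also on the other strand. RefSeq lists 2 starts for Mcm7, both with an E2F site, and the outer one is shown. Cdk1 also holds an E2F site, left in lower case.
Cdk1, chr10:69352913-69353130, minus strand: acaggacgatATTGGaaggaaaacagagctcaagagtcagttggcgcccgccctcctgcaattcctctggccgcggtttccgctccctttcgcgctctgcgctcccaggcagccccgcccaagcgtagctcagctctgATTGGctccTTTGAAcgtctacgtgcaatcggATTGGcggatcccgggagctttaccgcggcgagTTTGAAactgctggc
Cdc20, chr4:118437344-118437493, minus strand: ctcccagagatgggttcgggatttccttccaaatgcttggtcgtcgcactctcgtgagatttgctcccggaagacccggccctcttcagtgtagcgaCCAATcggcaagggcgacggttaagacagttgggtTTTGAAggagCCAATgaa
Mcm6, chr1:128359706-128359855, minus strand: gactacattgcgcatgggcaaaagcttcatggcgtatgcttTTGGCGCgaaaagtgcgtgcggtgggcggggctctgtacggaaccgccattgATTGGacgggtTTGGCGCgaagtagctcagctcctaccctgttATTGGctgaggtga
Mcm7, chr5:138171884-138172058, minus strand: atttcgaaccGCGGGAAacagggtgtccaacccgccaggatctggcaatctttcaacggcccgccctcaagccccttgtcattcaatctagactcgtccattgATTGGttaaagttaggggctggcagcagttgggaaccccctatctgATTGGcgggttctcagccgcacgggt
In these windows, which end at the base before the annotated start, the CHR elements of Cdk1 begin 71 and 15 bases upstream of the start, and the CHR of Cdc20 begins 18 bases upstream. The E2F sites begin 109 and 46 bases upstream in Mcm6 and 165 bases upstream in Mcm7. GENCODE places the outer end of the gene elsewhere, 26 bases further out than RefSeq's start for Cdk1, 9 for Cdc20 and 539 for Mcm7. The nearer CHR of Cdk1, the nearer CCAAT box of Cdc20 and the whole Mcm7 window therefore lie inside the GENCODE gene.

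Promoters were found for 34 of the 41 genes, 16 of them in the mitosis set and 6 in the replication set. The 250 bases upstream of each start were searched on both strands. The CHR was searched as TTTGAA and, in its other form, as TTTAAA. The E2F site was searched as TTCCCGC and, in its second form, as TTGGCGC, which can share letters with a CCAAT box on the other strand. A CHR together with a CCAAT box was present in 8 of the 16 mitosis genes (50%), 2 of the 6 replication genes (33.33%) and 10.1% of the 27025 genes in the table. CCAAT, with or without a CHR, was present in 14 of the 16 mitosis genes and in all 6 replication genes, against 37.49% of all genes. An E2F site was present in 2 of the 16 mitosis genes (12.5%), in 3 of the 6 replication genes (50%) and in 6.45% of all genes. These are matches of letters and are given as a description.

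Normalised counts summed to 6341300 to 14152000 per library, about 2.5 to 36.7 M reads where 1 read is worth the smallest step that recurs among the values of a library, and 13628 to 20643 genes were above 0. Cnr2 was detected in all 12 libraries labelled CB2-/-, at 217 to 454 normalised counts, and in wild-type libraries at 0 to 22 with a stimulus and 172 to 233 without. Since 1 value covers the whole gene, a partial deletion cannot be seen in it, and the genotype rests on the labels. Microglia markers, 15 genes, summed to 45280.3 to 76854 in CB2-/- libraries and 63789 to 147036 in wild-type libraries, with at most 1 gene of the list at 0. Libraries of the series 2048 to 2188 differed from the other series in 2 further ways: 3 genes (Gm19220, Gm26822 and Grip2) held 0.0741 to 50.8% of the values, against at most 0.00453% in the series 3012 to 3023, and mitochondrially encoded transcripts held 0.242 to 1.42%, against 1.50 to 3.20%. The labels describe 2 ways of making libraries, a kit for total RNA of over 100 ng and an amplifying protocol for low input, without saying which library was made by which. Whether replicates are separate animals or cultures is not in the labels, so a p-value covers the spread among these libraries and no more. In such bulk samples, fewer cells of a type and less RNA per cell cannot be told apart.

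Every Mcm gene called in a response to an agent fell, Pcna rose in wild-type cells, and mitosis genes were rarely called. Which of the Mcm genes passed the threshold differed between the responses. In CB2-/- microglia LPS/IFNγ lowered Mcm2 and Mcm6, CpG lowered Mcm6 and Mcm7, and no replication gene passed the threshold with PolyI:C. In wild-type microglia LPS/IFNγ lowered Mcm3, Mcm4, Mcm6 and Mcm7 and raised Pcna, PolyI:C lowered Mcm3, Mcm4 and Mcm7 and raised Pcna, and CpG lowered Mcm4 and raised Pcna. Of the 19 mitosis genes, none was called in 5 of these 6 responses, and 3 were called with PolyI:C in wild type, where 41.1% of all tested genes were. With single libraries left out, up to 2 were called with LPS/IFNγ and up to 2 with CpG in wild type. Some other settings, given below, called more mitosis genes with LPS/IFNγ in wild type. All mitosis genes had a mean under 100 over the libraries. In simulated data the fit recovered 1 of 25 2-fold changes of such genes with LPS/IFNγ in either genotype, so small changes can go uncalled. Of 25 2-fold changes of genes with a mean of 100 or more, 5 were recovered in wild-type and 1 in CB2-/- cells. Each change is a log2 fold change with its SE, computed on log2(value + 1), a scale that shrinks the changes of low genes. Adjusted p-values are limma's, over all 14668 genes by Benjamini-Hochberg, and under 0.05 a change was called.

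LPS/IFNγ changed 5 of 41 genes (3 higher, 2 lower), beside 23.7% of all tested genes (12.8% higher, 10.9% lower), in CB2-/- cells. In wild-type cells it changed 11 of 41 genes (6 higher, 5 lower), beside 39.7% of all tested genes (21.7% higher, 18% lower). PolyI:C changed 0 of 41 genes (0 higher, 0 lower), beside 8.55% of all tested genes (5.11% higher, 3.44% lower), in CB2-/- cells, where 3 had an unadjusted p under 0.05 (limma). In wild-type cells PolyI:C changed 13 of 41 genes (6 higher, 7 lower), beside 41.1% of all tested genes (21.2% higher, 19.9% lower). CpG changed 4 of 41 genes (1 higher, 3 lower), beside 14.3% of all tested genes (6.82% higher, 7.44% lower), in CB2-/- cells. In wild-type cells CpG changed 6 of 41 genes (4 higher, 2 lower), beside 36% of all tested genes (16.5% higher, 19.6% lower). In none of the 6 responses was the share of the 41 genes above the background. The 3 responses of a genotype share its unstimulated libraries.

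**Figure D1:**
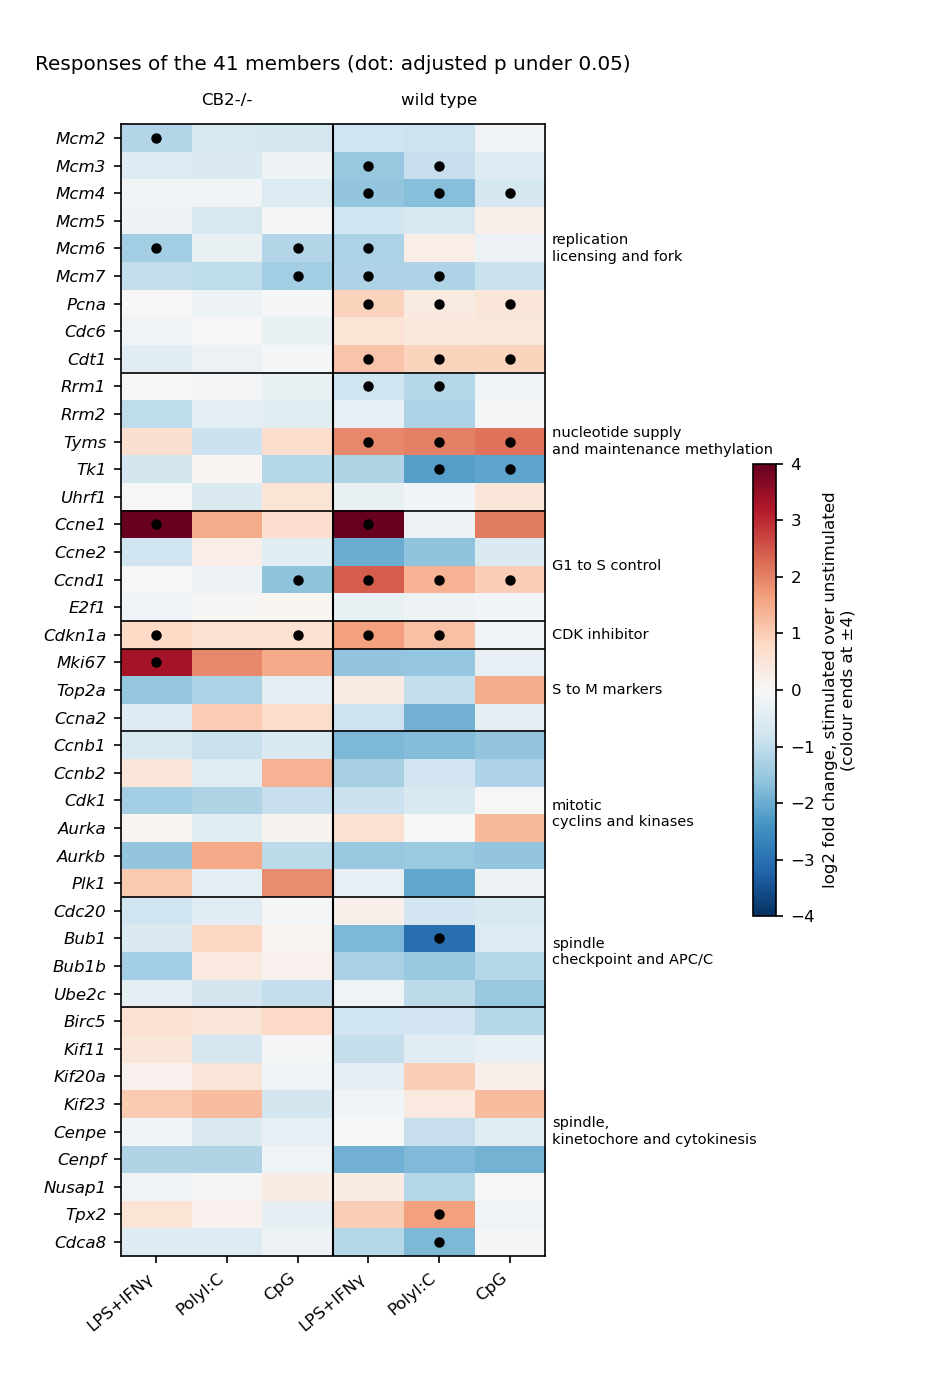
Colour gives the log2 fold change (stimulated over unstimulated) of each of the 41 genes, in rows grouped by role, for LPS/IFNγ, PolyI:C and CpG in CB2-/- (left columns) and wild-type microglia (right columns), and a dot marks an adjusted p under 0.05. Mcm3, Mcm4, Mcm7, Pcna, Cdt1, Tyms, Rrm1, Tk1, Ccnd1 and Cdkn1a carry 2 or 3 dots each in the wild-type columns, and the rows of mitosis genes carry 3 dots, all with PolyI:C in wild type.

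Mcm4, a helicase subunit (chromosome 16, 15623897 to 15637400, minus strand in GRCm38), was with Pcna 1 of the 2 replication genes called in all 3 wild-type responses, and neither was called in a CB2-/- response. It had 89.8, 70.7 and 78.6 normalised counts in CB2-/- cells given LPS/IFNγ, 77.7, 90.1 and 72.2 given PolyI:C and 50.9, 63.4 and 62.3 given CpG, against 98.5, 74.9 and 85.3 in unstimulated CB2-/- cells. Wild-type Mcm4 stood at 58.3, 59.9 and 61.2 given LPS/IFNγ, 49.5, 52 and 66.7 given PolyI:C and 91.6, 118 and 126 given CpG. Mcm4 in unstimulated wild type was 189, 227 and 141 (replicates 1 to 3) and 80.1, 90.3 and 142 (replicates 4 to 6). The 3 stimulated wild-type groups all lay below unstimulated replicates 1 to 3, and the changes were -1.59 ± 0.24, adjusted p = 6.68e-06 with LPS/IFNγ, -1.70 ± 0.24, adjusted p = 2.65e-06 with PolyI:C and -0.71 ± 0.24, adjusted p = 0.0217 with CpG (limma). The CpG call was lost when unstimulated replicate 1 or 2 or CpG replicate 1 was left out, and under quantile scaling. Stimulated CB2-/- libraries overlapped with unstimulated ones for LPS/IFNγ and PolyI:C, with -0.11 ± 0.24 for LPS/IFNγ and -0.10 ± 0.24 for PolyI:C. With CpG every CB2-/- library lay below every unstimulated one, without a call (-0.54 ± 0.24, adjusted p = 0.156, limma).

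Mcm3, another helicase subunit, had 107, 114 and 114 normalised counts in CB2-/- cells given LPS/IFNγ, 68.8, 109 and 169 given PolyI:C and 139.7, 173 and 116 given CpG, against 157, 151 and 177 in unstimulated CB2-/- cells. Wild-type Mcm3 stood at 95.6, 121 and 119 given LPS/IFNγ, 125, 175 and 208 given PolyI:C and 151, 257 and 283 given CpG. Mcm3 in unstimulated wild type was 372, 338 and 257 (replicates 1 to 3) and 143, 229 and 221 (replicates 4 to 6). Wild-type libraries with LPS/IFNγ (-1.51 ± 0.28, adjusted p = 0.000113) or PolyI:C (-0.94 ± 0.28, adjusted p = 0.00931, limma) lay below unstimulated replicates 1 to 3. The PolyI:C call was lost without PolyI:C replicate 1. In CB2-/- cells the libraries with LPS/IFNγ also lay below the unstimulated ones, with -0.53 ± 0.28, adjusted p = 0.203 (limma).

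Mcm6 had 102, 114 and 157 normalised counts in CB2-/- cells given LPS/IFNγ, 414, 216 and 203 given PolyI:C and 168, 142 and 123 given CpG, against 292, 332 and 351 in unstimulated CB2-/- cells. Wild-type Mcm6 stood at 69.9, 104 and 132 given LPS/IFNγ, 302, 306 and 264 given PolyI:C and 150.1, 311 and 175 given CpG. Mcm6 in unstimulated wild type was 175, 315 and 248 (replicates 1 to 3) and 302, 256 and 261 (replicates 4 to 6). Values were low with LPS/IFNγ in both genotypes, with a change of -1.40 ± 0.28, adjusted p = 0.000576 in CB2-/- cells and -1.27 ± 0.28, adjusted p = 0.000829 in wild-type cells (limma). With PolyI:C they overlapped with the unstimulated libraries in both genotypes, and with CpG the fall was called in CB2-/- cells (-1.17 ± 0.28, adjusted p = 0.00495) and not in wild-type cells (-0.25 ± 0.28, adjusted p = 0.552, limma).

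Mcm7 had 58.6, 65.6 and 46.9 normalised counts in CB2-/- cells given LPS/IFNγ, 50.6, 53.3 and 56.4 given PolyI:C and 49.7, 38.1 and 36.6 given CpG, against 138, 98.8 and 96.5 in unstimulated CB2-/- cells. Wild-type Mcm7 stood at 58.7, 54 and 72.9 given LPS/IFNγ, 60.2, 58.2 and 65.6 given PolyI:C and 36.1, 88.2 and 152 given CpG. Mcm7 in unstimulated wild type was 93.6, 213 and 156 (replicates 1 to 3) and 115, 185 and 107 (replicates 4 to 6). In CB2-/- cells every stimulated library lay below every unstimulated one, and the change was -0.94 ± 0.37, adjusted p = 0.0688 with LPS/IFNγ, -1.02 ± 0.37, adjusted p = 0.0923 with PolyI:C and -1.39 ± 0.37, adjusted p = 0.00994 with CpG (limma), so that CpG alone passed the threshold. In wild-type cells the falls with LPS/IFNγ (-1.24 ± 0.37, adjusted p = 0.0092) and with PolyI:C (-1.24 ± 0.37, adjusted p = 0.00873) both passed and were both lost without unstimulated replicate 2. The CpG call in CB2-/- cells was lost without unstimulated replicate 1.

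Mcm2 and Mcm5, the remaining helicase subunits, showed fewer calls. Mcm2 had 36.6, 36.5 and 45.4 normalised counts in CB2-/- cells given LPS/IFNγ, 67.7, 33.4 and 86.7 given PolyI:C and 47.4, 48.2 and 75.1 given CpG, against 101, 64.8 and 112 in unstimulated CB2-/- cells. Wild-type Mcm2 stood at 53.6, 70.8 and 51.4 given LPS/IFNγ, 49.6, 58 and 65 given PolyI:C and 80.6, 100.0 and 95.6 given CpG. Mcm2 in unstimulated wild type was 84.9, 109 and 112 (replicates 1 to 3) and 87.5, 172 and 238 (replicates 4 to 6). The fall in CB2-/- cells with LPS/IFNγ was -1.18 ± 0.34, adjusted p = 0.0132 (limma) and was lost without unstimulated replicate 1 or 3, while the wild-type values were -0.79 ± 0.34, adjusted p = 0.0723 with LPS/IFNγ and -0.81 ± 0.34, adjusted p = 0.0634 with PolyI:C. Mcm5 passed in no response and ranged over 15.6 to 47.5 in CB2-/- libraries and 38.5 to 154 in wild-type libraries. For Mcm2 and Mcm5 alike, wild-type libraries with LPS/IFNγ or PolyI:C lay below unstimulated replicates 1 to 3.

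Pcna (chromosome 2, 132249162 to 132253314, minus strand) went against the Mcm genes in wild-type cells. It had 1388, 1379 and 1192 normalised counts in CB2-/- cells given LPS/IFNγ, 1051, 1212 and 1177 given PolyI:C and 1351, 1264 and 1138 given CpG, against 1266, 1284 and 1392 in unstimulated CB2-/- cells. Wild-type Pcna stood at 1379, 1348 and 1259.8 given LPS/IFNγ, 957, 860.0 and 898 given PolyI:C and 1259.8, 1005 and 752 given CpG. Pcna in unstimulated wild type was 722, 686 and 711 (replicates 1 to 3) and 793, 906 and 685 (replicates 4 to 6). Each stimulated wild-type group lay above unstimulated replicates 1 to 3, with 0.91 ± 0.13, adjusted p = 4.97e-06 for LPS/IFNγ, 0.36 ± 0.13, adjusted p = 0.0355 for PolyI:C and 0.48 ± 0.13, adjusted p = 0.00663 for CpG (limma). The PolyI:C call was lost when any 1 of 5 of its 6 libraries was left out and under quantile scaling, and the CpG call was lost without CpG replicate 1. In CB2-/- cells Pcna was already at 1266 to 1392 without stimulus and moved by 0.00 ± 0.13, -0.20 ± 0.13 and -0.07 ± 0.13, none of them called.

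The loading factors Cdt1 and Cdc6 belong to the same step. Cdt1 had 176, 189 and 165 normalised counts in CB2-/- cells given LPS/IFNγ, 195, 170.3 and 240.1 given PolyI:C and 252, 201 and 239.7 given CpG, against 209.7, 252 and 246 in unstimulated CB2-/- cells. Wild-type Cdt1 stood at 299, 267 and 396 given LPS/IFNγ, 228, 274 and 315 given PolyI:C and 167, 331 and 345 given CpG. Cdt1 in unstimulated wild type was 123, 179 and 136 (replicates 1 to 3) and 171, 166 and 218 (replicates 4 to 6). It rose in wild-type cells with LPS/IFNγ (1.13 ± 0.23, adjusted p = 0.000292), PolyI:C (0.90 ± 0.23, adjusted p = 0.00251) and CpG (0.88 ± 0.23, adjusted p = 0.00361, limma), where CpG replicate 1 overlapped with the unstimulated libraries and the other groups did not overlap. In CB2-/- cells the changes were -0.41 ± 0.23, -0.23 ± 0.23 and -0.03 ± 0.23, with no call. Cdc6 was low, at 0.949 to 15.2 in CB2-/- and 0 to 17.1 in wild-type libraries, and passed in no comparison.

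**Figure D2:**
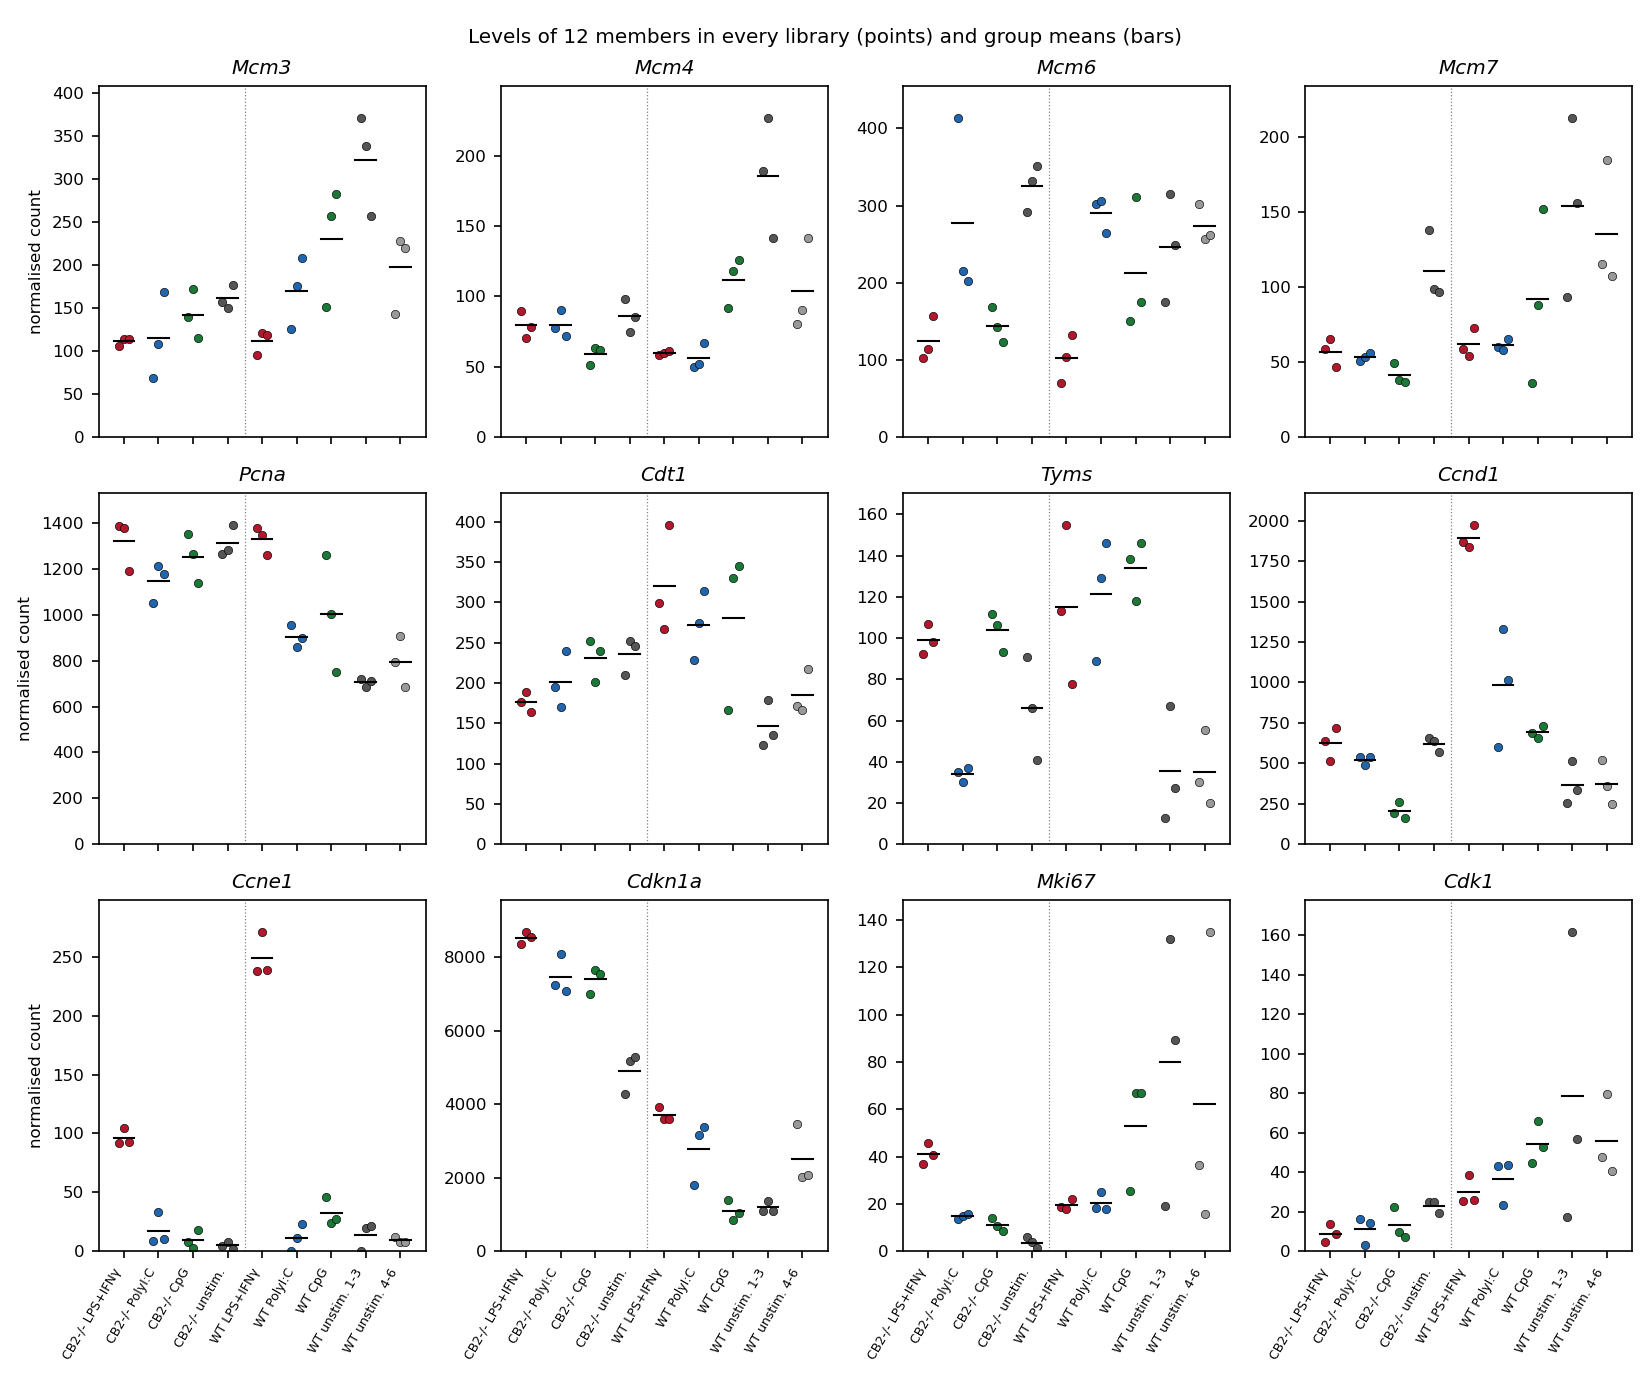
Normalised counts of 12 genes in every library (points) with the group mean (bars), CB2-/- groups left and wild-type groups right of the dotted line, each axis starting at 0. Mcm3 and Mcm4 lie low in stimulated wild-type libraries with LPS/IFNγ or PolyI:C, Pcna, Cdt1, Tyms and Ccnd1 lie high in them, and Ccne1 lies high with LPS/IFNγ in both genotypes.

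Among the 5 genes of nucleotide supply and maintenance methylation, Tyms rose and Rrm1 and Tk1 fell in wild-type cells, and none was called in a CB2-/- response. Tyms, which makes thymidylate, had 92.3, 107 and 97.9 normalised counts in CB2-/- cells given LPS/IFNγ, 35.1, 30.3 and 37.2 given PolyI:C and 112, 106 and 93.3 given CpG, against 90.9, 66 and 40.7 in unstimulated CB2-/- cells. Wild-type Tyms stood at 113, 155 and 77.7 given LPS/IFNγ, 89, 129 and 146 given PolyI:C and 138, 118 and 146 given CpG. Tyms in unstimulated wild type was 12.7, 67 and 27.3 (replicates 1 to 3) and 30, 55.2 and 19.9 (replicates 4 to 6). Tyms was above these replicates 1 to 3 in every stimulated wild-type library, with 1.91 ± 0.43, adjusted p = 0.000849 for LPS/IFNγ, 2.01 ± 0.43, adjusted p = 0.000486 for PolyI:C and 2.18 ± 0.43, adjusted p = 0.000271 for CpG (limma). In CB2-/- cells PolyI:C libraries lay below and those with CpG or LPS/IFNγ above the unstimulated ones, without a call.

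Rrm1, the large subunit of ribonucleotide reductase, had 186, 229 and 131 normalised counts in CB2-/- cells given LPS/IFNγ, 138, 174 and 207 given PolyI:C and 142, 176 and 127 given CpG, against 175, 162 and 199 in unstimulated CB2-/- cells. Wild-type Rrm1 stood at 126, 150.1 and 145 given LPS/IFNγ, 94, 126 and 118 given PolyI:C and 184, 218 and 251 given CpG. Rrm1 in unstimulated wild type was 182, 309.7 and 263 (replicates 1 to 3) and 239.8, 265 and 317 (replicates 4 to 6). It fell in wild-type cells with LPS/IFNγ (-0.81 ± 0.22, adjusted p = 0.00506) and PolyI:C (-1.13 ± 0.22, adjusted p = 0.000197, limma), where the groups did not overlap. Tk1, the thymidine kinase of the salvage pathway, fell in wild-type cells with PolyI:C (-2.20 ± 0.62, adjusted p = 0.00593) and CpG (-2.10 ± 0.62, adjusted p = 0.00991, limma), and its CpG call was lost without CpG replicate 1, where the value was 5.73. Without a call, Tk1 also lay below the unstimulated libraries with LPS/IFNγ in both genotypes and with CpG in CB2-/- cells. Rrm2, the small subunit of the reductase, ranged over 0 to 12.6 in CB2-/- and 0 to 101 in wild-type libraries and was not called, nor was Uhrf1, which guides maintenance DNA methylation.

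Of the G1 to S cyclins, Ccnd1 was called in all 3 wild-type responses and Ccne1 with LPS/IFNγ in both genotypes. Ccnd1, cyclin D1 (chromosome 7, 144929931 to 144939925, minus strand), which Csf1 induces in macrophages, had 639, 517 and 721 normalised counts in CB2-/- cells given LPS/IFNγ, 542, 488 and 538 given PolyI:C and 196, 261 and 161 given CpG, against 658, 636 and 569 in unstimulated CB2-/- cells. Wild-type Ccnd1 stood at 1865, 1835 and 1973 given LPS/IFNγ, 599.8, 1331 and 1017 given PolyI:C and 690.3, 656 and 729 given CpG. Ccnd1 in unstimulated wild type was 254, 513 and 333 (replicates 1 to 3) and 518, 358 and 246 (replicates 4 to 6). It rose in wild-type cells with LPS/IFNγ (2.42 ± 0.26, adjusted p = 4.25e-08), PolyI:C (1.41 ± 0.26, adjusted p = 0.000106) and CpG (0.97 ± 0.26, adjusted p = 0.00494, limma), with no overlap. In CB2-/- cells it fell with CpG (-1.62 ± 0.26, adjusted p = 6.69e-05, limma), also with no overlap, and did not pass with LPS/IFNγ (0.00 ± 0.26) or PolyI:C (-0.25 ± 0.26).

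Ccne1, cyclin E1 (chromosome 7, 38097984 to 38107534, minus strand), had 91.6, 105 and 92.4 normalised counts in CB2-/- cells given LPS/IFNγ, 8.43, 33.5 and 10.1 given PolyI:C and 8.03, 3.12 and 17.9 given CpG, against 4.79, 8.04 and 2.25 in unstimulated CB2-/- cells. Wild-type Ccne1 stood at 238, 271 and 238 given LPS/IFNγ, 0, 11.5 and 23.3 given PolyI:C and 46.4, 24.2 and 27.3 given CpG. Ccne1 in unstimulated wild type was 0, 19.5 and 21.2 (replicates 1 to 3) and 12.2, 8.06 and 8.0 (replicates 4 to 6). With LPS/IFNγ it rose in CB2-/- cells (4.13 ± 1.00, adjusted p = 0.00299) and in wild-type cells (5.02 ± 1.00, adjusted p = 0.000237, limma), the largest fold changes called among the 41 genes in these responses. Each library with LPS/IFNγ was above every unstimulated one. Wild-type unstimulated replicate 1 was at 0, and without it the wild-type rise was 3.55. The related cyclin Ccne2 ranged over 5.96 to 31.6 in CB2-/- and 0 to 29.3 in wild-type libraries and was not called. E2f1, a transcription factor that drives S phase genes, was called in none of the 17 comparisons. It had 159, 157 and 203 normalised counts in CB2-/- cells given LPS/IFNγ, 203, 214 and 164 given PolyI:C and 209, 183 and 209.7 given CpG, against 149, 193 and 229 in unstimulated CB2-/- cells. Wild-type E2f1 stood at 140.4, 150.3 and 152 given LPS/IFNγ, 147, 153 and 158 given PolyI:C and 105, 236 and 171 given CpG. E2f1 in unstimulated wild type was 184, 168 and 177 (replicates 1 to 3) and 220.2, 269 and 348 (replicates 4 to 6). Stimulated CB2-/- libraries lay within the range of the unstimulated ones, and wild-type libraries with LPS/IFNγ or PolyI:C lay below unstimulated replicates 1 to 3.

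Cdkn1a, the inhibitor p21 (chromosome 17, 29090976 to 29100727, plus strand), had 8358, 8679 and 8548 normalised counts in CB2-/- cells given LPS/IFNγ, 7246, 8077 and 7071 given PolyI:C and 7004, 7637 and 7554 given CpG, against 4269.7, 5163 and 5284 in unstimulated CB2-/- cells. Wild-type Cdkn1a stood at 3923, 3593 and 3609 given LPS/IFNγ, 1813, 3159 and 3368 given PolyI:C and 1395, 864 and 1033 given CpG. Cdkn1a in unstimulated wild type was 1104, 1367 and 1108 (replicates 1 to 3) and 3453, 2030.5 and 2089 (replicates 4 to 6). Every CB2-/- library was above every wild-type library, most of which are of the other number series. Within unstimulated wild type, replicates 4 to 6, of the series of the CB2-/- libraries, were all above replicates 1 to 3. It rose with LPS/IFNγ in CB2-/- cells (0.80 ± 0.20, adjusted p = 0.0037) and in wild-type cells (1.64 ± 0.20, adjusted p = 2.84e-07, limma), with no overlap in either. PolyI:C raised it in wild-type cells (1.18 ± 0.20, adjusted p = 3.34e-05), with 0.61 ± 0.20, adjusted p = 0.059 in CB2-/- cells, and CpG raised it in CB2-/- cells (0.60 ± 0.20, adjusted p = 0.0453, limma), a call that was lost when any 1 of its 6 libraries was left out, with -0.14 ± 0.20 in wild-type cells.

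Mki67, the source of the proliferation antigen Ki-67 (chromosome 7, 135689784 to 135716361, minus strand), had 37, 45.8 and 40.6 normalised counts in CB2-/- cells given LPS/IFNγ, 13.7, 14.9 and 15.7 given PolyI:C and 14, 10.7 and 8.79 given CpG, against 5.86, 3.77 and 1.22 in unstimulated CB2-/- cells. Wild-type Mki67 stood at 18.9, 18 and 22.2 given LPS/IFNγ, 18.5, 25.2 and 17.7 given PolyI:C and 25.4, 67 and 67 given CpG. Mki67 in unstimulated wild type was 19, 132 and 89.2 (replicates 1 to 3) and 36.7, 15.8 and 135 (replicates 4 to 6). It rose with LPS/IFNγ in CB2-/- cells (3.33 ± 0.66, adjusted p = 0.000406, limma), where every stimulated library, with any of the 3 agents, was above every unstimulated one. In wild-type cells the change was -1.59 ± 0.66, adjusted p = 0.057 (limma), and unstimulated replicates 1 to 3 spread from 19 to 132. Top2a, the topoisomerase that untangles replicated DNA, did not follow Mki67 in CB2-/- cells: it had 1.3, 6.76 and 3.33 normalised counts in CB2-/- cells given LPS/IFNγ, 0, 11.7 and 9.79 given PolyI:C and 12.3, 8.15 and 6.48 given CpG, against 23.2, 9.92 and 6.17 in unstimulated CB2-/- cells. Wild-type Top2a stood at 30, 21.1 and 51.2 given LPS/IFNγ, 6.9, 18.2 and 15.9 given PolyI:C and 37.8, 96.8 and 101 given CpG. Top2a in unstimulated wild type was 2.03, 118 and 49.3 (replicates 1 to 3) and 31.1, 11.5 and 46.7 (replicates 4 to 6), and no response of Top2a or of Ccna2, cyclin A2, was called.

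The 19 mitosis genes were low and varied strongly between wild-type libraries. Their median log2 fold change was -0.13 with LPS/IFNγ in CB2-/- cells and -0.80 in wild-type cells, -0.42 with PolyI:C in CB2-/- cells and -0.92 in wild-type cells, and -0.16 with CpG in CB2-/- cells and -0.45 in wild-type cells. Over all tested genes the medians lay between -0.09 and 0.05. In the 5 responses without a call by limma, 1 mitosis gene had an unadjusted p under 0.05 with LPS/IFNγ in each genotype, and 0 had one with CpG in either genotype or with PolyI:C in CB2-/- cells. In wild-type cells 14 of the 19 changes were negative with LPS/IFNγ, 16 with PolyI:C and 15 with CpG, and in CB2-/- cells 11, 11 and 12 were. Of the 19 genes, 11 reached 10 in fewer than 3 CB2-/- libraries, which left little room for a fall there. The CB2-/- medians and signs are therefore not set against those of wild type.

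With PolyI:C in wild-type cells, Bub1, a kinase of the spindle checkpoint, fell by 3.01 on the log2 scale (SE 0.85, adjusted p = 0.00612, limma). It had 5.79, 4.17 and 3.95 normalised counts in CB2-/- cells given LPS/IFNγ, 5.74, 36.7 and 11.6 given PolyI:C and 5.86, 6.05 and 13.8 given CpG, against 3.75, 2.41 and 34 in unstimulated CB2-/- cells. Wild-type Bub1 stood at 8.37, 5.3 and 1.39 given LPS/IFNγ, 0, 5.52 and 0.792 given PolyI:C and 9.94, 12 and 12.7 given CpG. Bub1 in unstimulated wild type was 6.57, 33.8 and 22 (replicates 1 to 3) and 11.5, 17.3 and 7.91 (replicates 4 to 6). The wild-type PolyI:C libraries lay below unstimulated replicates 1 to 3, and the call held whichever library was left out. Cdca8, borealin of the chromosomal passenger complex, fell too (-1.80 ± 0.58, adjusted p = 0.0159, limma), and Tpx2, which activates Aurora A kinase on the spindle, rose (1.63 ± 0.62, adjusted p = 0.0387, limma). Tpx2 had 47.8, 61.6 and 61.4 normalised counts in CB2-/- cells given LPS/IFNγ, 74.5, 18.4 and 60.1 given PolyI:C and 20.2, 60.9 and 20.8 given CpG, against 22.6, 37.5 and 66.9 in unstimulated CB2-/- cells. Wild-type Tpx2 stood at 57.6, 67.8 and 70.8 given LPS/IFNγ, 167, 72.9 and 87.8 given PolyI:C and 11, 44.3 and 50.9 given CpG. Tpx2 in unstimulated wild type was 14.7, 79.9 and 28.2 (replicates 1 to 3) and 27.5, 33.2 and 20.5 (replicates 4 to 6); PolyI:C replicate 1 was the highest, the groups overlapped, and the call was lost without that library or any 1 of 3 others. Cdca8 had 16.7, 5.58 and 13.6 normalised counts in CB2-/- cells given LPS/IFNγ, 9.6, 16.7 and 8.31 given PolyI:C and 24.7, 5.64 and 18.8 given CpG, against 19.4, 12.4 and 17.8 in unstimulated CB2-/- cells. Wild-type Cdca8 stood at 34.1, 9.17 and 14 given LPS/IFNγ, 10.6, 7.87 and 12.2 given PolyI:C and 24.5, 61.1 and 28.8 given CpG. Cdca8 in unstimulated wild type was 35.3, 58.5 and 25.4 (replicates 1 to 3) and 19.9, 9.78 and 22.7 (replicates 4 to 6), with no overlap between PolyI:C and unstimulated replicates 1 to 3, and its call was lost without unstimulated or PolyI:C replicate 2.

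Cdk1, the kinase that starts mitosis, had 4.54, 13.6 and 8.9 normalised counts in CB2-/- cells given LPS/IFNγ, 16.1, 3.21 and 14.2 given PolyI:C and 22.6, 9.72 and 7.11 given CpG, against 24.8, 25.2 and 19.3 in unstimulated CB2-/- cells. Wild-type Cdk1 stood at 25.6, 38.6 and 26.1 given LPS/IFNγ, 43.4, 23.5 and 43.4 given PolyI:C and 44.7, 65.9 and 52.9 given CpG. Cdk1 in unstimulated wild type was 17.2, 161 and 56.7 (replicates 1 to 3) and 47.6, 79.6 and 40.8 (replicates 4 to 6). Stimulated CB2-/- libraries with LPS/IFNγ or PolyI:C lay below the unstimulated ones, without a call (-1.36 ± 0.63, adjusted p = 0.135 with LPS/IFNγ, limma), and in wild-type cells unstimulated replicates 1 to 3 spanned all stimulated libraries. Ccnb1, the cyclin B1 partner of Cdk1, had 0.747, 0 and 0 normalised counts in CB2-/- cells given LPS/IFNγ, 0, 0 and 0 given PolyI:C and 0.722, 0 and 0 given CpG, against 1.48, 1.52 and 0 in unstimulated CB2-/- cells, with 8 of these 12 libraries at 0. Wild-type Ccnb1 stood at 18.8, 11.6 and 0 given LPS/IFNγ, 1.56, 10.2 and 9.18 given PolyI:C and 0, 17.4 and 20 given CpG. Ccnb1 in unstimulated wild type was 12.8, 68.2 and 10 (replicates 1 to 3) and 7.28, 15.9 and 23.3 (replicates 4 to 6), and it was not called in any response.

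Aurka, the Aurora A kinase of the spindle poles, had 8.54, 15.3 and 11.2 normalised counts in CB2-/- cells given LPS/IFNγ, 9.07, 2.05 and 19.8 given PolyI:C and 7.95, 12.9 and 15.8 given CpG, against 10.7, 6.86 and 16.1 in unstimulated CB2-/- cells. Wild-type Aurka stood at 9.59, 18.2 and 19.3 given LPS/IFNγ, 6.79, 12.5 and 9.74 given PolyI:C and 25.1, 23.7 and 25.9 given CpG. Aurka in unstimulated wild type was 6.43, 33.9 and 3.41 (replicates 1 to 3) and 12.4, 17.3 and 19.5 (replicates 4 to 6). Stimulated and unstimulated libraries overlapped for Aurka in both genotypes, and none of its responses was called. Bub1b, the checkpoint protein BubR1, had 6.32, 2.73 and 27.6 normalised counts in CB2-/- cells given LPS/IFNγ, 50.2, 33.4 and 16 given PolyI:C and 9.63, 21.1 and 78.3 given CpG, against 32.9, 23.3 and 14.6 in unstimulated CB2-/- cells. Wild-type Bub1b stood at 14.4, 6.55 and 11 given LPS/IFNγ, 7.04, 12.4 and 7.57 given PolyI:C and 0, 68.6 and 28.2 given CpG. Bub1b in unstimulated wild type was 29.9, 18.8 and 33.7 (replicates 1 to 3) and 45.4, 36.7 and 33 (replicates 4 to 6). For Bub1b the wild-type libraries with LPS/IFNγ or PolyI:C lay below unstimulated replicates 1 to 3, without a call (-1.31 ± 1.02, adjusted p = 0.336 and -1.51 ± 1.02, adjusted p = 0.259, limma). The mitosis genes not given by library, such as the kinases Aurkb and Plk1, the anaphase activator Cdc20 and the motor Kif11, were called in none of the 6 responses.

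Setting the 2 sets side by side, the median log2 fold change of the mitosis genes minus that of the replication genes was 0.39 with LPS/IFNγ in CB2-/- cells and 0.44 in wild-type cells, 0.15 with PolyI:C in CB2-/- cells and -0.11 in wild-type cells, and 0.38 with CpG in CB2-/- cells and -0.20 in wild-type cells. No test was made of these differences. Single libraries turned their sign in wild-type cells, to 0.62 with PolyI:C without unstimulated replicate 2 and to 0.59 with CpG without CpG replicate 1. The median level of the replication set, on the log2(value + 1) scale, was 6.50, 6.16 and 6.31 with LPS/IFNγ, 6.13, 6.51 and 6.46 with PolyI:C, 5.70, 6.01 and 6.25 with CpG and 7.12, 6.64 and 6.82 unstimulated in CB2-/- libraries. In wild-type libraries it was 5.90, 6.17 and 6.21 with LPS/IFNγ, 6.10, 5.89 and 6.08 with PolyI:C, 7.24, 6.89 and 7.26 with CpG, 7.46, 7.83 and 7.30 in unstimulated replicates 1 to 3 and 6.86, 7.54 and 7.79 in replicates 4 to 6. In all 6 responses every stimulated library lay below every unstimulated library it was compared with.

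The median level of the mitosis set minus that of the replication set in the same library, which changes with the balance of the sets, averaged -4.13 ± 0.22 with LPS/IFNγ, -3.93 ± 0.58 with PolyI:C and -3.70 ± 0.05 with CpG in CB2-/- cells, against -4.61 ± 0.23 unstimulated (SD, n = 3 each). Every stimulated CB2-/- library, the lowest at -4.43, was above every unstimulated one, the highest at -4.44. In wild-type cells it averaged -2.77 ± 0.46 with LPS/IFNγ, -2.77 ± 0.28 with PolyI:C and -3.99 ± 2.82 with CpG, against -3.37 ± 1.05 in unstimulated replicates 1 to 3, and the unstimulated libraries, at -4.54 to -2.52, overlapped with each stimulated group. Of the 19 mitosis genes, 7 were under 10 in every CB2-/- library, and the part of such low values in this balance was not tested.

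**Figure D3:**
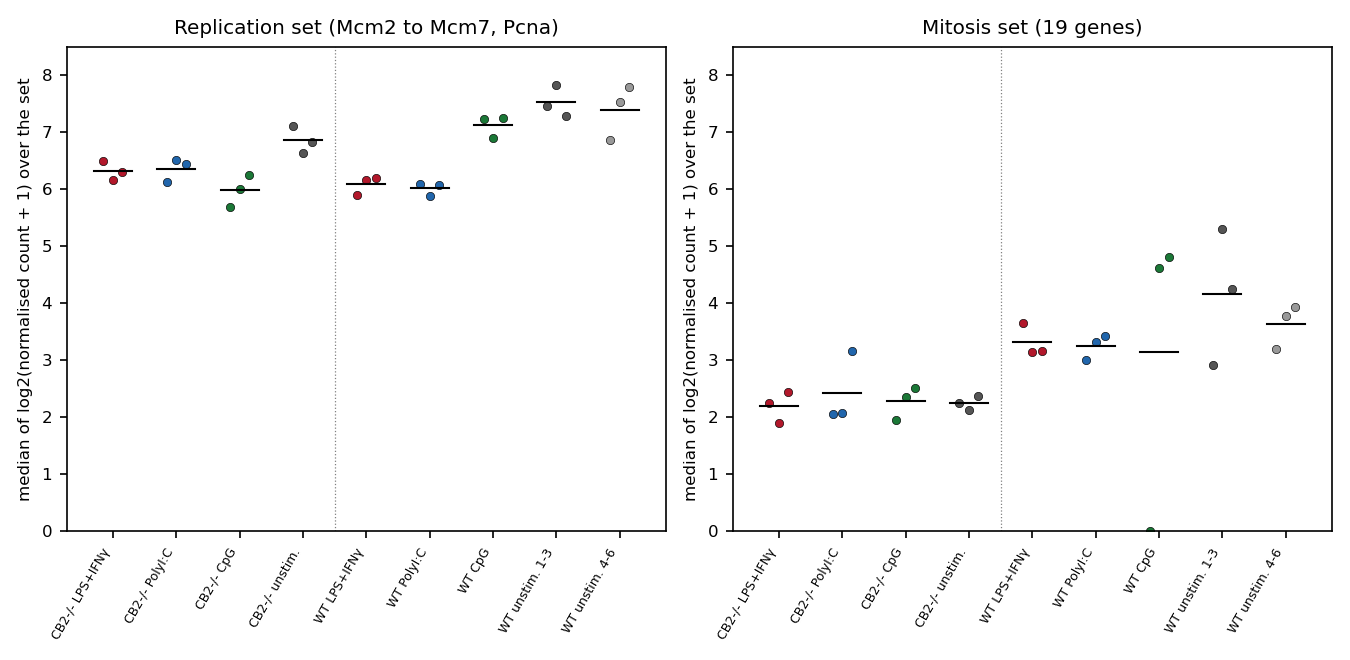
Median log2(normalised count + 1) over the 7 replication genes (left) and the 19 mitosis genes (right) in every library (points) with the group mean (bars), CB2-/- groups left of the dotted line. Replication medians of stimulated groups lie below those of the unstimulated libraries they are compared with, and mitosis medians spread widely within the wild-type CpG and unstimulated groups, where CpG replicate 1 is at 0; heights of the 2 panels are not comparable, since values are not per transcript length.

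Wild-type CpG and unstimulated replicate 1 stood low for the mitosis genes and for markers of other cells. The mitosis genes summed to 145, 564 and 528 normalised counts in wild-type CpG libraries, to 174, 905 and 397 in wild-type unstimulated replicates 1 to 3 and to 275, 336 and 327 in replicates 4 to 6. Markers of fibroblasts and meninges (11 of 12 listed genes in the table) summed to 20.4, 1397 and 2398 in the CpG libraries, 31.1, 3248 and 448 in unstimulated replicates 1 to 3 and 849, 1132 and 2675 in replicates 4 to 6. Astrocyte markers (11 of 12) summed to 100.1, 912 and 1464 in the CpG libraries, 231, 1185 and 396 in unstimulated replicates 1 to 3 and 1692, 2788 and 2143 in replicates 4 to 6. The 3 wild-type libraries with a fibroblast sum under 200 were replicate 1 of the CpG, unstimulated and PolyI:C groups. CpG and unstimulated replicate 1 also had the 2 lowest mitosis sums of the wild type. PolyI:C replicate 1 had the highest mitosis sum of its group, 328, of which Tpx2 alone made 167. Its mitosis median on the log2 scale was the lowest of its group, at 3.01 against 3.32 and 3.43. It had 5 mitosis genes at 0, against 1 in each of the other PolyI:C libraries.

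In CB2-/- libraries the mitosis sum was 129 to 212, the fibroblast sum 106 to 213 and the astrocyte sum 189 to 389.7. Wild-type libraries with LPS/IFNγ had mitosis sums of 309, 265 and 252, fibroblast sums of 973, 1124 and 820.4 and astrocyte sums of 769, 919.9 and 852. Wild-type PolyI:C libraries had mitosis sums of 328, 277 and 305, fibroblast sums of 178, 1089 and 999.8 and astrocyte sums of 67.2, 583 and 668. Among the defining markers, Col1a1 was at 0 in wild-type unstimulated replicate 1 and CB2-/- PolyI:C replicate 1, Dcn was at 0 there and in wild-type CpG replicate 1 and CB2-/- PolyI:C replicate 2, and Gfap was at 0 in wild-type PolyI:C replicate 1. The part of other cells in the values of the mitosis genes was not tested.

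Leaving out replicate 1 of the wild-type unstimulated, PolyI:C and CpG groups, a choice made after seeing the data, gave 5 mitosis genes lower and 0 higher with LPS/IFNγ in wild-type cells, in place of 0, and 3 lower and 0 higher with PolyI:C. For CpG in wild-type cells and for the 3 CB2-/- responses it gave no mitosis call. The authors' batch-corrected table gave 7 mitosis genes lower with LPS/IFNγ in wild-type cells, library weights gave 4 lower and 2 higher, and quantile scaling gave 2 lower. Leaving out 1 library at a time gave, with LPS/IFNγ in wild-type cells, 2 lower without unstimulated replicate 1, 1 lower without LPS/IFNγ replicate 1 and 1 higher without unstimulated replicate 2. With CpG in wild-type cells it gave 2 lower without CpG replicate 3, 1 lower without CpG replicate 2 and 1 higher without unstimulated replicate 2, and library weights and quantile scaling gave 1 higher each. The batch-corrected table also gave 1 mitosis gene higher with CpG in CB2-/- cells and 2 lower with CpG in wild-type cells. The share of all tested genes called in each of these settings is not given here, so the counts are not set against it.

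**Figure D4:**
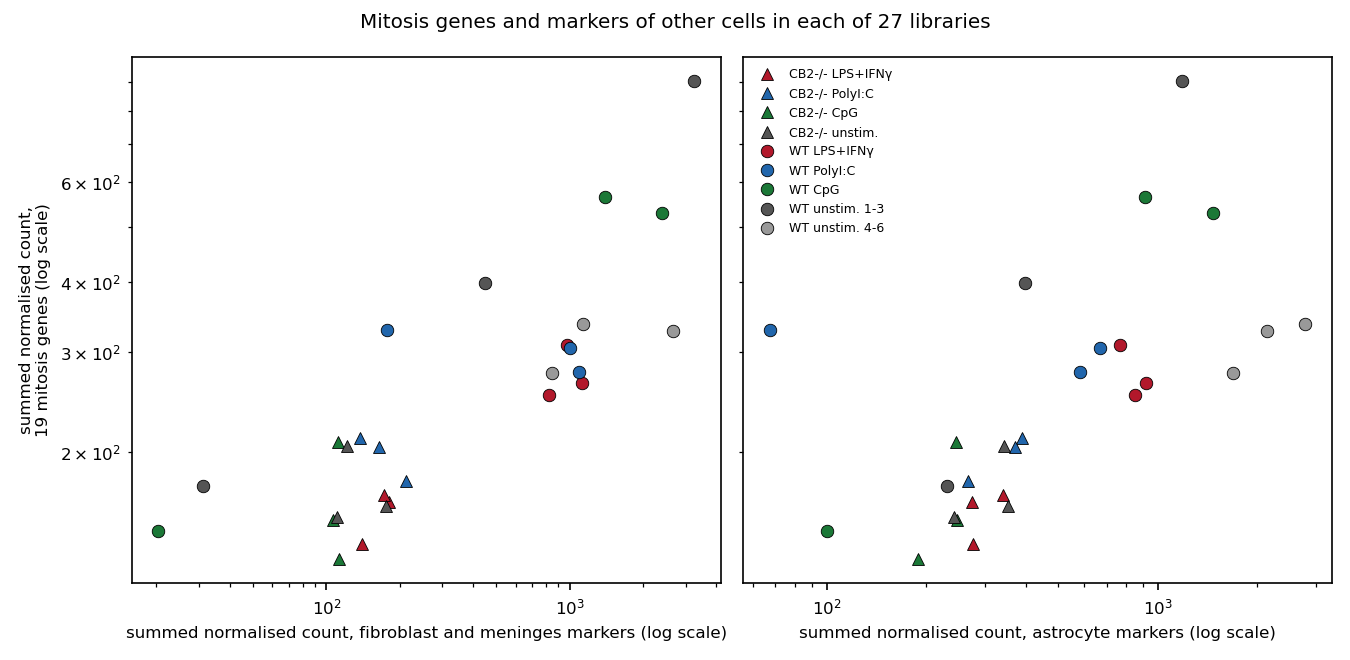
Summed normalised count of the 19 mitosis genes (vertical, log scale) against that of fibroblast and meninges markers (left) and astrocyte markers (right, both log scale), 1 point per library, CB2-/- as triangles and wild type as circles. CB2-/- libraries sit together at low values of all 3 sums, and wild-type unstimulated replicate 2, at 905, is the highest library for mitosis genes and for fibroblast markers.

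The responses of the 2 genotypes were set against each other in the same model, as CB2-/- response minus wild-type response. LPS/IFNγ gave a different response in 5 of 41 genes (2 higher, 3 lower), beside 12.3% of all tested genes (3.98% higher, 8.36% lower). PolyI:C did so in 8 of 41 genes (4 higher, 4 lower), beside 24.8% of all tested genes (10.8% higher, 13.9% lower), and CpG in 1 of 41 genes (0 higher, 1 lower), beside 11.8% of all tested genes (6.11% higher, 5.66% lower). None of these shares is above the background. In the replication set, the Mcm4 difference was positive with LPS/IFNγ (1.48 ± 0.34, adjusted p = 0.00392) and PolyI:C (1.59 ± 0.34, adjusted p = 0.000968, limma). Pcna had negative differences with LPS/IFNγ (-0.91 ± 0.19, adjusted p = 0.00175) and PolyI:C (-0.55 ± 0.19, adjusted p = 0.0336), and so had Cdt1 with LPS/IFNγ (-1.54 ± 0.32, adjusted p = 0.00181) and PolyI:C (-1.13 ± 0.32, adjusted p = 0.011, limma). The Pcna difference with PolyI:C was lost when any 1 of 7 of its 12 libraries was left out.

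Ccnd1 was the gene whose response differed between genotypes with all 3 agents: -2.42 ± 0.37, adjusted p = 6.28e-05 with LPS/IFNγ, -1.65 ± 0.37, adjusted p = 0.00161 with PolyI:C and -2.59 ± 0.37, adjusted p = 4.07e-05 with CpG (limma), with the same call whichever library was left out. Mki67 differed the other way, by 4.92 ± 0.93, adjusted p = 0.000637 with LPS/IFNγ and 3.47 ± 0.93, adjusted p = 0.00704 with PolyI:C (limma), and its unstimulated CB2-/- libraries were at or under 5.86. With PolyI:C the Tyms difference was -2.87 ± 0.61, adjusted p = 0.000948, that of Rrm1 1.07 ± 0.31, adjusted p = 0.0135 and that of Bub1 3.84 ± 1.20, adjusted p = 0.0208 (limma). The Bub1 difference was the single call among mitosis genes and was lost without any 1 of 5 of its 12 libraries. Stimulated libraries of the genotypes were never in the same number series, so that each response was taken within its own series. A response that differs between the series therefore cannot be told apart from one that differs between the genotypes.

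**Figure D5:**
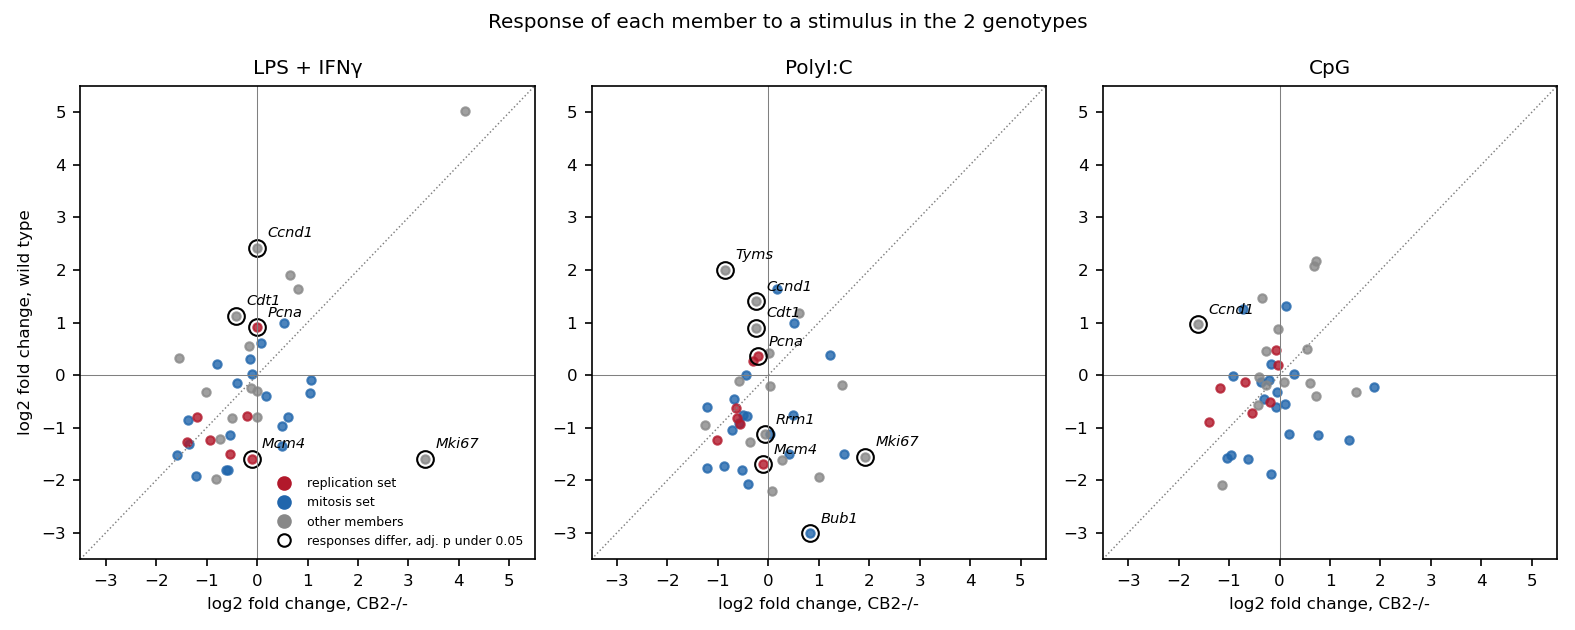
Each point is 1 of the 41 genes, with its log2 fold change (stimulated over unstimulated) in CB2-/- cells on the horizontal axis and in wild-type cells on the vertical axis, for LPS/IFNγ, PolyI:C and CpG; rings and names mark genes whose responses differ at an adjusted p under 0.05. Ccnd1 is ringed in all 3 panels, above the diagonal, and Mki67 in the first and second, below it.

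Without stimulus, CB2-/- cells differed from wild-type replicates 4 to 6 in 3 of 41 genes (2 higher, 1 lower), beside 9.9% of all tested genes (6.25% higher, 3.65% lower). Pcna (0.73 ± 0.13, adjusted p = 0.000671) and Cdkn1a (1.00 ± 0.20, adjusted p = 0.00166) were higher and Mki67 was lower (-3.40 ± 0.66, adjusted p = 0.00116, limma), none with overlap, and all 3 calls held whichever library was left out. None of the 19 mitosis genes passed, and 3 had an unadjusted p under 0.05 (limma). Astrocyte markers summed to 242, 353 and 343 in these CB2-/- libraries and to 1692, 2788 and 2143 in wild-type replicates 4 to 6, and fibroblast markers to 111, 175 and 122 in these CB2-/- libraries and 849, 1132 and 2675 in those wild-type replicates. Their part in these differences was not tested. The library numbers of these groups, 2048 to 2050 and 2186 to 2188, form separate runs. A difference between the runs therefore cannot be told apart from one between the genotypes. Unstimulated wild-type replicates 4 to 6 differed from replicates 1 to 3, the other number series, in 2 of 41 genes (1 higher, 1 lower), beside 12% of all tested genes (6.33% higher, 5.66% lower). Cdkn1a was higher (1.04 ± 0.20, adjusted p = 0.00081) and Mcm4 was lower (-0.85 ± 0.24, adjusted p = 0.0197, limma), and the Mcm4 call was lost without any 1 of 4 of the 6 libraries.

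The agents were also compared with each other within a genotype. For LPS/IFNγ over PolyI:C in CB2-/- cells the calls were 3 of 41 genes (1 higher, 2 lower), beside 11.9% of all tested genes (6.95% higher, 4.96% lower). For LPS/IFNγ over CpG there were 2 of 41 genes (2 higher, 0 lower), beside 10.2% of all tested genes (6.36% higher, 3.82% lower), and for PolyI:C over CpG 3 of 41 genes (2 higher, 1 lower), beside 12% of all tested genes (6.39% higher, 5.56% lower). Ccnd1 separated CpG from the other agents in CB2-/- cells, by 1.62 ± 0.26, adjusted p = 9.20e-05 for LPS/IFNγ over CpG and 1.37 ± 0.26, adjusted p = 0.000692 for PolyI:C over CpG (limma). For LPS/IFNγ over PolyI:C in wild-type cells the calls were 4 of 41 genes (3 higher, 1 lower), beside 9.26% of all tested genes (5.35% higher, 3.91% lower). For LPS/IFNγ over CpG there were 9 of 41 genes (4 higher, 5 lower), beside 32.8% of all tested genes (19.7% higher, 13.1% lower), and for PolyI:C over CpG 6 of 41 genes (2 higher, 4 lower), beside 30.1% of all tested genes (17.6% higher, 12.5% lower). Mcm6 was lower with LPS/IFNγ than with PolyI:C in CB2-/- cells (-1.09 ± 0.28, adjusted p = 0.0105, lost without replicate 1 of either group) and in wild-type cells (-1.55 ± 0.28, adjusted p = 0.000617, limma). Mcm4 was lower with LPS/IFNγ (-0.88 ± 0.24, adjusted p = 0.00583) and with PolyI:C (-0.98 ± 0.24, adjusted p = 0.00264) than with CpG in wild-type cells, and Cdkn1a was higher by 1.78 ± 0.20, adjusted p = 1.16e-07 and 1.32 ± 0.20, adjusted p = 1.37e-05 (limma).

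Genes outside the 41 but of the same pathways were read from lists by function. Of all tested genes, LPS/IFNγ raised 12.8% and lowered 10.9% in CB2-/- cells and raised 21.7% and lowered 18% in wild-type cells. PolyI:C raised 5.11% and lowered 3.44% in CB2-/- cells and raised 21.2% and lowered 19.9% in wild-type cells, and CpG raised 6.82% and lowered 7.44% in CB2-/- cells and raised 16.5% and lowered 19.6% in wild-type cells. The shares called among other replication factors and other mitosis genes were below those of all tested genes in all 6 responses. Of 36 other replication factors, 1 rose and 1 fell with LPS/IFNγ in CB2-/- cells (median -0.26) and 4 rose and 6 fell in wild-type cells (median -0.31). With PolyI:C none was called in CB2-/- cells (limma, 2 at an unadjusted p under 0.05) and 3 rose and 8 fell in wild-type cells. With CpG 2 fell in CB2-/- cells, and 2 rose and 3 fell in wild-type cells. Lig1, the ligase that joins Okazaki fragments, fell with LPS/IFNγ in CB2-/- cells (-1.24 ± 0.28) and in wild-type cells (-1.50 ± 0.28), with CpG in CB2-/- cells (-1.58 ± 0.28) and in wild-type cells (-1.55 ± 0.28), and with PolyI:C in wild-type cells (-1.63 ± 0.28). Pola2, a subunit of the primase complex, rose with LPS/IFNγ in CB2-/- cells (1.14 ± 0.20) and in wild-type cells (0.75 ± 0.20).

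Of 47 tested other mitosis genes, 3 rose and 4 fell with LPS/IFNγ in CB2-/- cells, where 23.7% of all tested genes were called, and 3 rose and 7 fell in wild-type cells, where 39.7% were. With PolyI:C 2 rose and none fell in CB2-/- cells, and 5 rose and 12 fell in wild-type cells. With CpG 2 rose and 1 fell in CB2-/- cells, and 5 rose and 4 fell in wild-type cells. Cenpa, the centromeric histone, fell in CB2-/- cells with LPS/IFNγ (-2.18 ± 0.54, adjusted p = 0.00358) and CpG (-1.60 ± 0.54, adjusted p = 0.0478), and in wild-type cells with LPS/IFNγ (-3.76 ± 0.54, adjusted p = 3.33e-06), PolyI:C (-4.49 ± 0.54, adjusted p = 2.19e-07) and CpG (-3.35 ± 0.54, adjusted p = 2.28e-05, limma). Pttg1, securin, rose in CB2-/- cells with LPS/IFNγ (0.85 ± 0.17) and PolyI:C (0.60 ± 0.17) and in wild-type cells with LPS/IFNγ (1.47 ± 0.17) and PolyI:C (1.97 ± 0.17).

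Among 20 E2F, retinoblastoma and DREAM genes, the retinoblastoma family moved in different directions. Rbl1 (p107) rose with LPS/IFNγ in CB2-/- cells (1.85 ± 0.21, adjusted p = 3.17e-07) and in wild-type cells (2.64 ± 0.21, adjusted p = 3.10e-10, limma). Rbl2 (p130) fell in CB2-/- cells with LPS/IFNγ (-0.69 ± 0.19) and CpG (-0.90 ± 0.19). In wild-type cells Rbl2 fell with LPS/IFNγ (-2.11 ± 0.19), PolyI:C (-2.03 ± 0.19) and CpG (-1.17 ± 0.19), and Rb1 fell with LPS/IFNγ (-1.80 ± 0.27), PolyI:C (-1.71 ± 0.27) and CpG (-1.86 ± 0.27). The list held 2 genes higher and 4 lower with LPS/IFNγ in CB2-/- cells and 3 higher and 5 lower in wild-type cells. Of the other G1 cyclins and kinases, 7 genes, Ccnd2 rose in wild-type cells with LPS/IFNγ (4.54 ± 1.13, adjusted p = 0.00229, limma), Cdk6 rose in CB2-/- cells with LPS/IFNγ (0.96 ± 0.30) and CpG (1.56 ± 0.30) and in wild-type cells with all 3 agents (1.74 ± 0.30, 2.27 ± 0.30 and 0.94 ± 0.30), and Myc fell with LPS/IFNγ in CB2-/- cells (-2.22 ± 0.44) and rose with CpG in wild-type cells (1.81 ± 0.44).

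The inhibitor Cdkn1b (p27) fell in wild-type cells with LPS/IFNγ (-1.10 ± 0.20), PolyI:C (-1.50 ± 0.20) and CpG (-1.81 ± 0.20) and was not called in CB2-/- cells. The p53 pathway also controls Cdkn1a. Of 17 other p53 targets, 2 rose and 6 fell with LPS/IFNγ in CB2-/- cells, where 23.7% of all tested genes were called, and 5 rose and 3 fell in wild-type cells, where 39.7% were. Sesn1 fell in CB2-/- cells (-1.97 ± 0.35) and in wild-type cells (-4.36 ± 0.35), and Mdm2 rose in CB2-/- cells (0.53 ± 0.18) and in wild-type cells (1.70 ± 0.18). In DNA damage checkpoint and repair, 15 genes, 1 fell and none rose with LPS/IFNγ in CB2-/- cells and 3 fell and none rose in wild-type cells, among them Atr, a checkpoint kinase (-1.17 ± 0.28).

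Of 6 other genes of dNTP metabolism, 1 rose and 0 fell with LPS/IFNγ in CB2-/- cells, and 2 rose and 1 fell in wild-type cells. Samhd1, the hydrolase that depletes dNTPs, rose with LPS/IFNγ in CB2-/- cells (1.94 ± 0.17, adjusted p = 3.64e-09) and in wild-type cells (2.88 ± 0.17, adjusted p = 1.08e-12, limma), and with PolyI:C in CB2-/- cells (0.81 ± 0.17) and in wild-type cells (2.37 ± 0.17). Dck, which salvages deoxycytidine, rose with PolyI:C in CB2-/- cells (0.51 ± 0.13) and in wild-type cells with LPS/IFNγ (1.67 ± 0.13) and PolyI:C (2.15 ± 0.13). Of 8 growth factors and receptors of microglia, Csf1r, the receptor on which their growth depends, fell in CB2-/- cells with LPS/IFNγ (-0.46 ± 0.13) and CpG (-0.52 ± 0.13), and in wild-type cells with LPS/IFNγ (-2.01 ± 0.13), PolyI:C (-2.03 ± 0.13) and CpG (-2.47 ± 0.13), while its ligand Csf1 rose with LPS/IFNγ in CB2-/- cells (2.26 ± 0.66) and in wild-type cells (2.57 ± 0.66). Of 18 ligase genes of the APC/C and SCF complexes, 1 rose and 1 fell with LPS/IFNγ in CB2-/- cells, and 2 rose and 1 fell in wild-type cells.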

How the data were processed

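RNA of cultured newborn mouse microglia was sequenced as 75 bp single reads in 27 libraries. The main table holds counts per gene normalised by the authors, a signal on a linear scale; per the submitters' processing notes the tools were CASAVA 1.8, kallisto and DESeq2, and their roles and the genome build are not stated there. A deposited table of batch-corrected values on a log2 scale, treated as a score, served only as an alternative; which batches the authors removed is not stated. Of the low values in a library of the main table, 45.7 to 67.7% lay within 0.01 of a whole multiple of its smallest step, so reads were not recovered, no count model was used, and the depth in reads is approximate. Values are not per transcript length, so levels of different genes were not compared as results; a ranking by mean served only to choose genes and promoters to print. The library kits named in the labels' protocols do not mark strand.

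Values were log2-transformed with a pseudocount of 1, genes at 10 or more in at least 3 libraries were kept, and all 27 libraries were fitted together with limma 3.58.1 (R 4.3.3; group and number series as terms, empirical Bayes with a mean trend), with Benjamini-Hochberg adjustment over 14668 genes. The fit was tested on simulated data with 1 dispersion for all genes. For genes with a mean under 100 and LPS/IFNγ in wild-type cells, it recovered 1 of 25 2-fold, 18 of 25 4-fold and 24 of 25 8-fold changes. For the LPS/IFNγ difference between genotypes it recovered 0 of 25 2-fold, 4 of 25 4-fold and 19 of 25 8-fold changes of such genes. Of 25 2-fold changes of genes with a mean of 100 or more, it recovered 5 in wild-type and 1 in CB2-/- cells with LPS/IFNγ. For the difference it recovered 1 of 25 2-fold and 14 of 25 4-fold changes of these higher genes. Small changes were thus mostly missed at both levels. The genes described and the lists of other genes were chosen with earlier results of these data known. Values by library are given for the 2 members of each role with the highest mean, for Mki67, Top2a, Ccnd1, E2f1, Cdkn1a, Ccnb1, Cdk1 and Mcm2, and for further called members; from other lists the called genes with the largest change and a higher group mean of 100 or more were named in any 1 comparison and then given in others. The 27 pairs of replicates differed by 5.24 to 42.0 times the counting noise (chi-square per degree of freedom over approximate reads), so none was merged. Gene positions are from GENCODE M21 (GRCm38), in which all 41 symbols have the same gene identifier.

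Alternatives were pseudocounts of 0.5 and 5, a filter of 50 or none, quantile scaling, no series term, the batch-corrected table, library weights, leaving out each library in turn and, chosen after seeing the data, leaving out sets of libraries. Cells treated for 30 min, which the labels' protocols mention, were not analysed here.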

Additional observations from a re-analysis of the deposited data

Results flagged for a closer look

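Wild-type unstimulated replicate 2 stood above the other 5 unstimulated wild-type libraries by Dixon's test at the 95% level for 9 of the 45 quantities tested. Chance flags about 1 in 20 of independent quantities. These are not independent, since all were read in the same libraries, of both number series, and the mitosis sum adds several of the genes. The count of 9 was therefore not set against chance. The mitosis set summed to 905 there. The single genes were the kinase Plk1 at 30.6, the cyclin Ccnb1 at 68.2, the ubiquitin-conjugating enzyme Ube2c at 30.7, the survivin gene Birc5 at 52.7, the spindle motors Kif11 at 50.4 and Kif20a at 80.7, the spindle factor Tpx2 at 79.9 and the reductase subunit Rrm2 at 101 normalised counts. Fibroblast and meninges markers summed to 3248 in the same library, the highest of all 27 libraries; their part in these values was not tested.

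The response to a stimulus differed between genotypes for 14 gene and agent pairs (limma, adjusted p under 0.05, CB2-/- response minus wild-type response on the log2 scale). With LPS/IFNγ the differences were 4.92 for Mki67, 1.48 for Mcm4, -0.91 for Pcna, -1.54 for Cdt1 and -2.42 for Ccnd1. With PolyI:C they were 3.84 for Bub1, 3.47 for Mki67, 1.59 for Mcm4, 1.07 for Rrm1, -0.55 for Pcna, -1.13 for Cdt1, -1.65 for Ccnd1 and -2.87 for Tyms. With CpG the difference was -2.59 for Ccnd1. Of all tested genes, 12.3% differed in this way with LPS/IFNγ, 24.8% with PolyI:C and 11.8% with CpG. The shares among the cell cycle and DNA replication genes were not above these.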

How the results depend on the processing

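With a pseudocount of 5 or no filter, every count of called genes stayed within 1.5 times that given. The filter of 50, which keeps 3 of the 19 mitosis genes, gave 1 call for PolyI:C in CB2-/- cells, 2 for the CpG difference between genotypes, and mitosis minus replication medians of -0.82 for LPS/IFNγ in CB2-/- cells and -0.79 for the PolyI:C difference. A pseudocount of 0.5 gave 1 call for LPS/IFNγ over CpG in CB2-/- cells. Quantile scaling, which moved the median of all genes by -0.11 for LPS/IFNγ and 0.14 for CpG in wild-type cells, -0.12 for the CpG difference, and -0.28 and -0.15 for LPS/IFNγ and PolyI:C over CpG in wild-type cells, gave 1 call for PolyI:C in CB2-/- cells, 2 for the CpG difference and 4 between the number series. Without the series term there were 2 calls for the CpG difference and 5 between unstimulated genotypes.

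The batch-corrected table gave 2 calls for PolyI:C in CB2-/- cells, 21 for LPS/IFNγ in wild-type cells, 4 for the CpG difference, 9 between unstimulated genotypes, 4 and 5 for LPS/IFNγ and PolyI:C over CpG in CB2-/- cells, and 15 and 11 for the same in wild-type cells. Library weights gave 10, 3 and 8 calls for LPS/IFNγ, PolyI:C and CpG in CB2-/- cells, 21 for LPS/IFNγ in wild-type cells, 9 and 4 for the LPS/IFNγ and CpG differences, 10 between unstimulated genotypes, and 7 and 5 for LPS/IFNγ and PolyI:C over CpG in CB2-/- cells. Without replicate 1 of the wild-type unstimulated, PolyI:C and CpG groups, chosen after seeing the data, there were 3 calls for PolyI:C in CB2-/- cells, 18 and 3 for LPS/IFNγ and CpG in wild-type cells, 3 for the CpG difference, 8 between unstimulated genotypes, 5 between the series and 5 for PolyI:C over CpG in CB2-/- cells. Without CB2-/- PolyI:C replicate 2 and wild-type unstimulated replicate 5, also chosen then, there was 1 call between the series and 1 for LPS/IFNγ over PolyI:C in CB2-/- cells. The causes were not tested.

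Leaving out 1 library at a time, the calls in CB2-/- cells ranged over 4 to 5 for LPS/IFNγ, 0 for PolyI:C throughout and 2 to 3 for CpG, in wild-type cells over 11 to 14, 10 to 13 and 3 to 9, for the differences over 5 to 7, 6 to 8 and 1 to 3, between unstimulated genotypes over 3 to 5 and between the series over 1 to 2. For LPS/IFNγ over PolyI:C, LPS/IFNγ over CpG and PolyI:C over CpG they ranged over 0 to 3, 1 to 2 and 1 to 3 in CB2-/- cells and 3 to 4, 4 to 9 and 4 to 8 in wild-type cells. Mitosis minus replication medians ranged over 0.20 to 0.60, 0.09 to 0.50 and 0.24 to 0.51 for LPS/IFNγ, PolyI:C and CpG in CB2-/- cells, 0.17 to 0.90, -0.98 to 0.62 and -1.03 to 0.59 in wild-type cells, -0.23 to 0.54, 0.07 to 1.07 and -0.21 to 1.49 for the differences and -1.03 to -0.40 between unstimulated genotypes. Counts moved by over 1.5 times in these cases. CpG in wild-type cells gave 3 calls without CpG replicate 1, and CpG in CB2-/- cells 2 without unstimulated replicate 1. The CpG difference gave 3 without wild-type unstimulated replicate 2 or CpG replicate 1 and 2 without CpG replicate 3, and its median difference of the sets turned to -0.21 without wild-type CpG replicate 1. Unstimulated genotypes gave 5 without wild-type replicate 4, and the number series 1 without replicate 1, 2 or 5. LPS/IFNγ over CpG in wild-type cells gave 4 without LPS/IFNγ replicate 1. LPS/IFNγ over PolyI:C in CB2-/- cells gave 0 without PolyI:C replicate 1 and 1 without LPS/IFNγ replicate 2 or 3. In the same cells LPS/IFNγ over CpG gave 1 without LPS/IFNγ replicate 2 or 3 or CpG replicate 1 or 2, and PolyI:C over CpG 1 without CpG replicate 1 or 2. Wild-type CpG replicate 1 had 12 mitosis genes at 0 with about 4.76 M reads. Wild-type CpG replicate 2 had 2 at 0 with 2.5 M reads. The order was the other way in CB2-/- CpG replicates 1, 2 and 3. They had 0, 3 and 4 at 0 with 36.7, 11.7 and 7.32 M reads. The part of depth in the mitosis genes at 0 was not tested. No paired analysis was possible because the titles carry library numbers and no replicate numbers. Without the series term and in the batch-corrected table the comparison of the number series was not run.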

Other observations

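Genes outside the cell cycle that mark the cells in these cultures were read in the same fits. The share of all tested genes called was 23.7% with LPS/IFNγ, 8.55% with PolyI:C and 14.3% with CpG in CB2-/- cells, 39.7%, 41.1% and 36% with the same agents in wild-type cells, and 9.9% between unstimulated genotypes. Of 14 tested microglia markers, 3 rose and 10 fell with LPS/IFNγ in CB2-/- cells (median -1.06) and 3 rose and 9 fell in wild-type cells (median -1.54). With PolyI:C 5 fell in CB2-/- cells (median -0.67), and 3 rose and 11 fell in wild-type cells (median -1.80). With CpG 1 rose and 9 fell in CB2-/- cells (median -0.79), and 3 rose and 10 fell in wild-type cells (median -1.28). The 9 tested astrocyte markers and the 11 fibroblast and meninges markers gave no call in the 3 CB2-/- responses (limma; 1, 0 and 1 astrocyte markers and 0 fibroblast markers at an unadjusted p under 0.05 with LPS/IFNγ, PolyI:C and CpG). In wild-type cells 2 astrocyte markers and 1 fibroblast marker rose with LPS/IFNγ. Calls of these markers with PolyI:C and CpG in wild-type cells are not given here. In unstimulated CB2-/- cells against wild-type replicates 4 to 6, 1 astrocyte marker and 2 fibroblast and meninges markers were lower, with medians of -2.0 and -3.37 over the lists.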
